A study of Homo sapiens with 12 samples.

Results

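The nuclear-encoded respiratory chain genes form a set of 102 genes among the 26258 Entrez identifiers measured and the 13515 that were tested. They were chosen by name: a current symbol that starts with NDUFA, NDUFB, NDUFC, NDUFS, NDUFV, SDH, UQCR, COX followed by a digit, or ATP5, and at least 1 CPM (counts per 1000000 reads on genes) in 2 or more of the 12 libraries. Antisense and read-through genes with a hyphen in the symbol (6) and pseudogenes (7) were left out of the 120 identifiers with such a name, and 5 of the remaining 107 stayed below the limit on CPM. By prefix, 45 genes belonged to complex I, 8 to complex II, 9 to complex III, 21 to complex IV and 19 to complex V, and by role 79 were subunits, 21 assembly factors, 1 a supercomplex factor (COX7A2L) and 1 an inhibitor (ATP5IF1). The rule used names and that limit alone, but it was chosen with earlier results of these data known. Of the 102, 101 reached 1 CPM in all 12 libraries (ATP5MGL did not).

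The libraries came from HLE, an established cell line of human hepatocellular carcinoma. Cells received siRNAs that target both YAP and TAZ, the products of YAP1 and WWTR1 (siY/T), siRNA that targets ATF4 (siATF4), or a control siRNA (siCtrl). Each of these was then kept in 5 µM Sorafenib (Srf), an inhibitor of several kinases, or in its vehicle DMSO. This is the dose in the labels, and the study's text names a different one. This gave 6 groups of 2 libraries, named siCtrl DMSO, siY/T DMSO, siATF4 DMSO, siCtrl Srf, siY/T Srf and siATF4 Srf. The question behind the design was how YAP/TAZ and ATF4 shape gene expression with and without Sorafenib. All groups were transfected, so the controls carry an siRNA too, and a single cell line stands for the disease. The labels do not say whether the 2 libraries of a group came from separate cultures, so p-values measure the spread between libraries, which may be technical. The study's methods speak of biological triplicates, which is not the number of libraries per group analysed here.

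The respiratory chain moves electrons from NADH and succinate to oxygen in the inner mitochondrial membrane. Complex I oxidizes NADH, complex II oxidizes succinate and is also an enzyme of the citric acid cycle, complex III passes the electrons to cytochrome c, and complex IV reduces oxygen. Complexes I, III and IV pump protons, and complex V, the ATP synthase, uses the gradient to make ATP. Assembly factors insert cofactors or hold intermediates and are not part of the finished enzyme. A few subunits of complexes I, III, IV and V are encoded in mitochondrial DNA and were not analysed here. ATF4 is the main transcription factor of the integrated stress response, which mitochondrial damage can set off.

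Between 41408348 and 53619732 reads fell on genes in each library, and 1 read stood for 0.0187 to 0.0242 CPM. The siRNA targets were low where they should be. In DMSO, YAP1 measured 277 and 279.9 CPM with siCtrl but 46.6 and 57.7 CPM with siY/T, WWTR1 169.8 and 173 but 53.3 and 68.6 CPM, and ATF4 248 and 249 CPM with siCtrl but 96.2 and 101 CPM with siATF4. With Sorafenib, ATF4 measured 484 and 492 CPM with siCtrl, 317 and 314 CPM with siY/T but 84.5 and 90.6 CPM with siATF4. WWTR1 was also lower in siATF4 DMSO cells, at 107 and 104 CPM. Of 10 hepatocyte markers, 8 stayed under 1 CPM in every library, ALB among them, and only FGB was at or above 1 CPM in all 12, with 368 and 431 CPM in siCtrl DMSO beside 68.5 and 72.2 CPM in siATF4 DMSO cells. The liver origin of the line thus rests on its label here. The 5 mesenchymal markers were all above 1 CPM and summed to between 2033 and 3056 CPM, and the 5 epithelial markers, of which KRT8 and KRT18 alone were above 1 CPM in all libraries, to between 978 and 3333 CPM. The 3 endothelial markers summed to at most 0.262 CPM, and of 4 leukocyte markers 3 were under 1 CPM throughout. Single markers moved with the siRNAs. KRT8 and KRT18 changed by -1.74 ± 0.05 and -1.65 ± 0.05 on the log2 scale in siY/T DMSO against siCtrl DMSO cells, COL1A1 by -2.13 ± 0.09 in siATF4 DMSO and -2.51 ± 0.09 in siATF4 Srf cells. Markers of the same list did not move together. The epithelial marker CDH1 rose by 1.02 ± 0.17 in siY/T DMSO cells. In siATF4 DMSO and siATF4 Srf cells the mesenchymal marker FN1 changed by -1.36 ± 0.06 and -0.89 ± 0.06, while ZEB1 rose by 0.75 ± 0.13 and 0.81 ± 0.13. The fourth leukocyte marker, CD68, which other cells also hold in lysosomes, was at 19.8 and 21.1 CPM in siCtrl DMSO beside 75.02 and 71.9 CPM in siATF4 DMSO cells, and at 22.8 and 23.3 beside 61.3 and 62.1 CPM in Srf. The part of these markers in the results was not tested. The 2 siY/T DMSO libraries stood farther apart than those of any other group, and the counts of calls in siY/T DMSO cells are given with each of them left out.

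The 102 genes together took between 0.902% and 1.06% of the reads on genes. Their summed level was 9303 and 9437 CPM in siCtrl DMSO, 9946 and 9023 CPM in siY/T DMSO, 10176 and 9879.5 CPM in siATF4 DMSO, and with Sorafenib 9372 and 9401 CPM with siCtrl, 9166 and 9519.6 CPM with siY/T, and 10359 and 10625 CPM with siATF4. The 2 siATF4 Srf libraries were the highest of the 12, and the lowest siATF4 DMSO library was below the higher siY/T DMSO library. On the scale of CPM per kilobase of transcript, used to compare genes with each other, the mean over the 12 libraries was highest for ATP5F1B, the catalytic β subunit of ATP synthase, at 707 CPM per kilobase. ATP5MC2, a c-ring gene, followed at 567 CPM per kilobase, and COX8A, a small subunit of complex IV, at 508 CPM per kilobase. At the low end were COX18 at 2.19, SDHAF4 at 2.22 and ATP5MGL at 2.00 CPM per kilobase. The median per complex was 127 CPM per kilobase for complex V, 80.0 for complex III, 79.1 for complex I, 59.6 for complex IV and 41.0 for complex II. In RNA from whole cultures, fewer cells of a kind and less RNA per cell cannot be told apart.

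**Figure D1:**
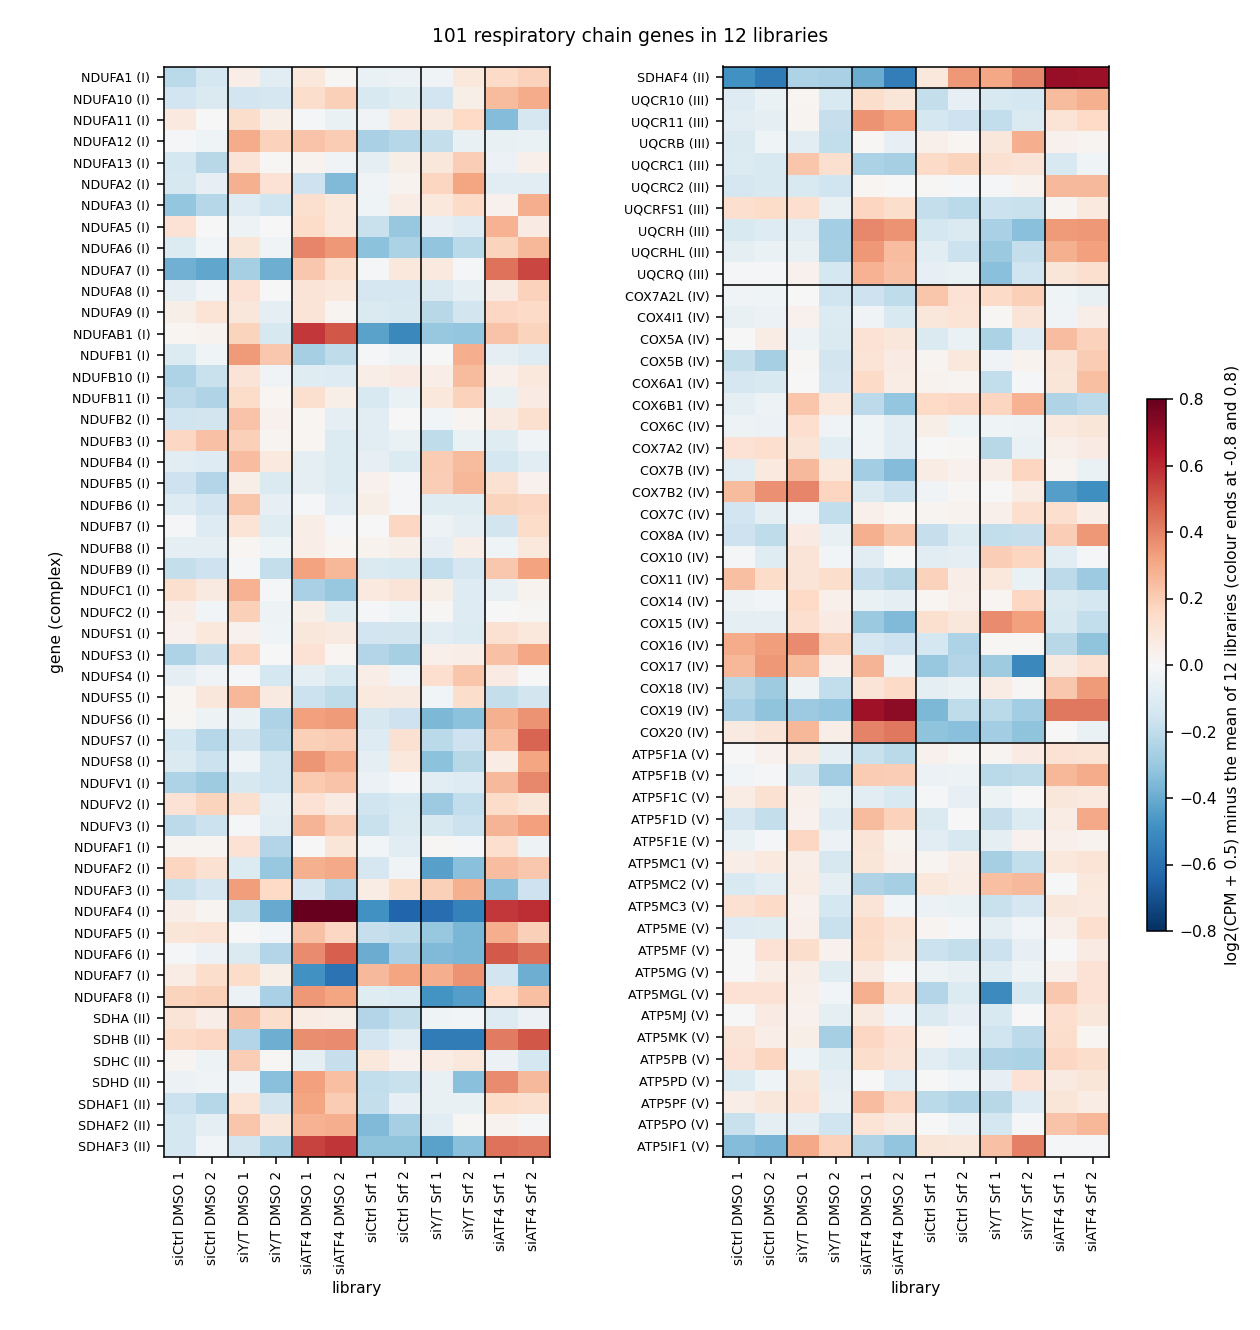
Each row is a gene (101 of the 102 are drawn) with its complex in brackets, each column 1 of the 12 libraries, and the colour is log2(CPM + 0.5) minus the gene's mean over the 12 libraries, with the scale ending at -0.8 and 0.8. NDUFAF4 and COX19 are darkest red in both siATF4 DMSO libraries, and SDHAF4 in both siATF4 Srf libraries, and NDUFAF7 is the darkest blue in the siATF4 DMSO libraries.

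With ATF4 knocked down, many of these genes were at higher levels, in DMSO and in Sorafenib. In siATF4 DMSO against siCtrl DMSO cells, 42 of the 102 genes were raised and 16 lowered at an adjusted p under 0.05 (limma on log2(CPM + 0.5), Benjamini-Hochberg adjustment over all 13515 genes). As shares these were 41.2% and 15.7%, where 33.4% of all genes tested were raised and 34.4% lowered. In siATF4 Srf against siCtrl Srf cells, 57 were raised and 12 lowered, which is 55.9% and 11.8%, against 35.8% and 37.4% of all genes. The median log2 fold change of the 102 genes was 0.09 in DMSO and 0.17 in Srf, beside -0.00 and -0.01 for all genes tested. Few of the changes were large. At an unadjusted P under 0.05 with a log2 change of at least 0.58, 3 genes were higher (COX19, NDUFAF4, SDHAF3) and NDUFAF7 lower in DMSO, and 5 were higher (NDUFAF4, NDUFAF6, SDHAF3, COX19, NDUFAB1) and 0 lower in Srf, where 22.7% and 28.9% of all genes passed those limits in either direction.

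Scaling the libraries by TMM gave the same counts, 42 raised and 16 lowered in DMSO and 57 raised and 12 lowered in Srf. Transcript length moved with the comparison in DMSO. The canonical transcripts of the respiratory chain genes had a median of 894 bases against 3253 bases over the genes tested, and 73 of the 101 with a length fell in the shortest of 5 equal length bins, whose median log2 fold change for siATF4 in DMSO was 0.11 against -0.11 in the longest. In Srf these medians were 0.05 and -0.05. A trend on length was then removed from each library, a setting added after the data were seen. Of the 101 genes, 36 were then raised and 30 lowered in DMSO with a median of 0.02, where 34.98% and 35.33% of all genes were. In Srf 59 were raised and 14 lowered with a median of 0.16, where 38.58% and 36.82% of all genes were. At this setting the share raised in DMSO was thus near that of all genes, while in Srf it stayed above it. Without siATF4 DMSO replicate 2 the number lowered in DMSO was 10. Whether length has a part in the DMSO result beyond this setting was not tested.

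**Figure D2:**
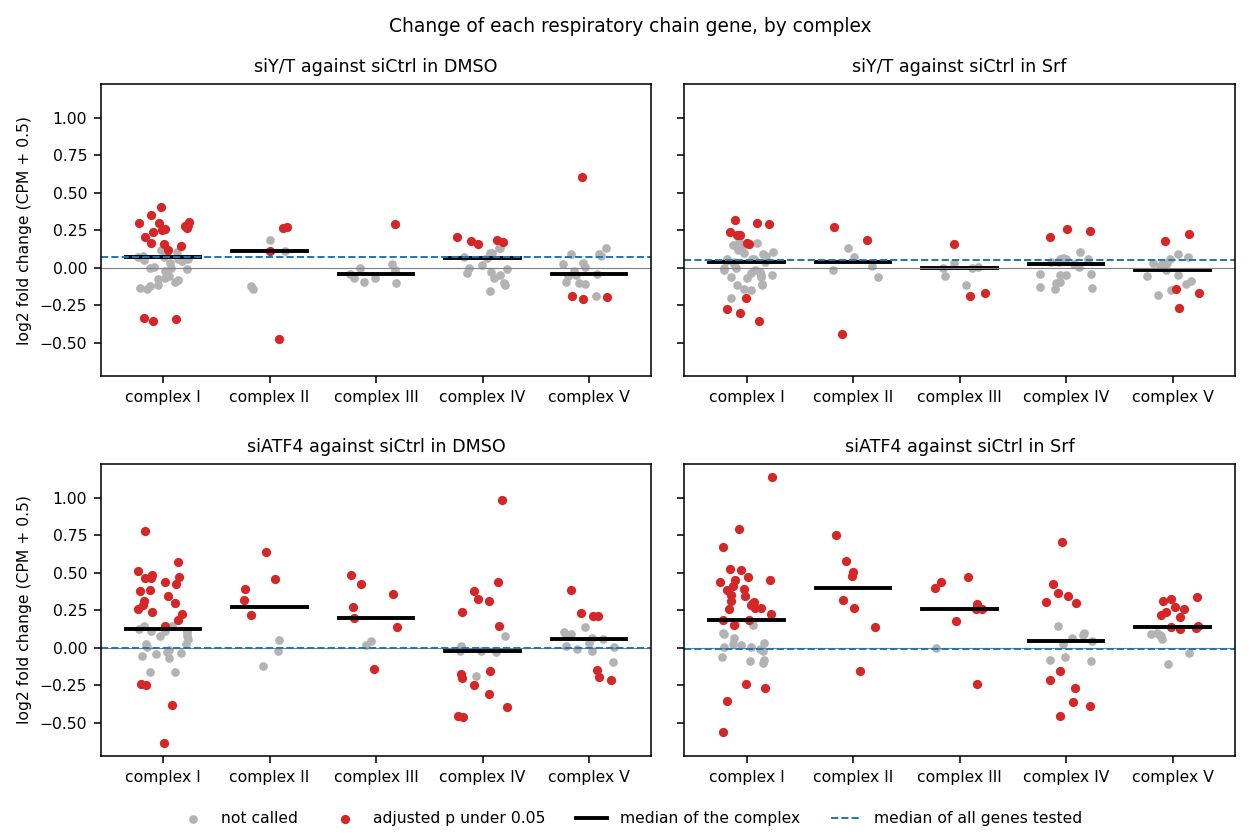
Points are the log2 fold changes of single genes in the 4 comparisons of an siRNA with siCtrl, by complex, in red where the adjusted p is under 0.05, with a black line at the median of the complex and a dashed blue line at that of all genes tested. In siATF4 cells with Sorafenib the median of complex II is at 0.40, that of complex IV at 0.05, and no gene of complex V is called lower.

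The complexes differed in how many genes rose. As given above, 35.8% of all genes were raised and 37.4% lowered in siATF4 Srf cells, and 33.4% and 34.4% in siATF4 DMSO cells. In siATF4 Srf cells, 25 of 45 genes of complex I, 7 of 8 of complex II, 7 of 9 of complex III, 6 of 21 of complex IV and 12 of 19 of complex V were raised, while 4, 1, 1, 6 and 0 were lowered. The medians were 0.19, 0.40, 0.26, 0.05 and 0.14 on the log2 scale. In siATF4 DMSO cells, 20, 5, 6, 7 and 4 were raised and 4, 0, 1, 8 and 3 lowered, with medians of 0.12, 0.27, 0.20, -0.02 and 0.06. Complex IV had the lowest median in both and as many genes lowered as raised in Srf. No test of 1 complex against another was run, and the complexes differ in make-up. Assembly factors are 4 of 8 genes in complex II, 8 of 45 in complex I and 9 of 21 in complex IV, while complex III holds subunits only. In complex II they were 4 of the 7 genes raised in Srf and 3 of the 5 raised in DMSO. With the length trend removed, the medians in DMSO were 0.09, 0.17, 0.15, -0.14 and -0.06 from complex I to V, so that of complex V changed sign, and in Srf they were 0.18, 0.38, 0.28, 0.04 and 0.15. For complex V in Srf the number raised fell from 12 to 6 without siCtrl Srf replicate 1 or siATF4 Srf replicate 2, and to 7 without siCtrl Srf replicate 2 or siATF4 Srf replicate 1. Of the 58 and 69 single calls in DMSO and Srf, 44 and 53 held in all 12 fits that left out 1 library, and losses are given with the gene where it is named.

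**Figure D3:**
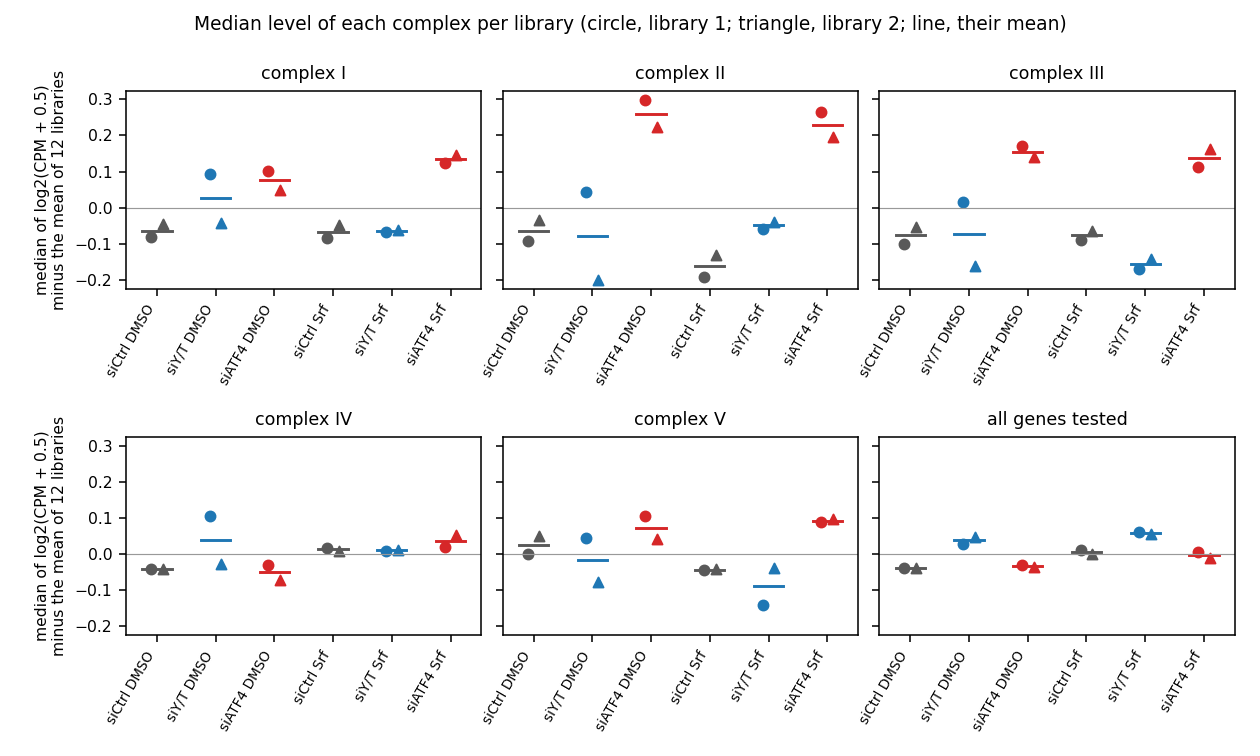
Each point is 1 library, a circle for library 1 and a triangle for library 2, and its height is the median over the genes of a complex of log2(CPM + 0.5) minus the gene's mean over the 12 libraries. Both siATF4 libraries of each medium lie above both siCtrl libraries for complexes I, II and III, whereas the 2 siY/T DMSO libraries lie apart in all 5 complexes.

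Complex I, the NADH dehydrogenase, is built around core subunits that carry the flavin and the iron-sulfur clusters, with further subunits around them. NDUFV1, which binds NADH and the flavin, was at 211 and 217 CPM in siCtrl Srf and 261 and 285 CPM in siATF4 Srf cells, and the groups did not overlap (a log2 fold change of 0.35 ± 0.04 SE, adjusted p = 8.9e-06). It rose in DMSO as well, from 184 and 179 to 252 and 256 CPM (0.48 ± 0.04). NDUFS3, a core subunit of the matrix arm, rose from 64.5 and 63.2 to 89.7 and 94.4 CPM in Srf (0.52 ± 0.06). NDUFS1, which carries several iron-sulfur clusters, rose by 0.26 ± 0.04. In DMSO, NDUFS1 differed by 0.02 ± 0.04 and was not called. NDUFS8 rose in Srf by 0.18 ± 0.08 although one siATF4 library lay inside the siCtrl range, with 93.8 and 105 CPM in siCtrl and 103 and 123 CPM in siATF4 cells (limma, adjusted p = 0.049), and 8 of 12 fits without 1 library lost the call, those without either siATF4 DMSO library, either siCtrl DMSO library, either siY/T Srf library, siCtrl Srf replicate 1 or siATF4 Srf replicate 2. Of the 30 supernumerary subunits, 13 were raised and 2 lowered in Srf (NDUFA11 and NDUFS5), where 35.8% of all genes were raised and 37.4% lowered.

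Among the supernumerary subunits NDUFAB1, the mitochondrial acyl carrier protein, stood out with 28.7 and 27.05 CPM in siCtrl Srf and 45.6 and 43.96 CPM in siATF4 Srf cells (a log2 fold change of 0.67 ± 0.08 SE, adjusted p = 4.5e-06), and at 39.2 and 39.6 CPM (siCtrl) and 57.7 and 55.1 CPM (siATF4) in DMSO (0.51 ± 0.08). NDUFA7 was the subunit with the largest rise in DMSO, from 9.16 and 8.94 to 14.1 and 13.3 CPM (0.57 ± 0.08). NDUFA6 rose by 0.43 ± 0.06 in DMSO and 0.51 ± 0.06 in Srf. NDUFC1 fell in DMSO, from 67.03 and 64.6 to 51.2 and 49.7 CPM (-0.38 ± 0.08), and in Srf its 58.9 and 62.5 CPM beside 64.8 and 65.9 CPM in siCtrl were not called different.

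The assembly factors of complex I held both the largest rise and the largest fall of the set in siATF4 Srf cells. NDUFAF4, which acts early in assembly (GRCh37 chr6:97337191-97345767 on the minus strand), was at 12.3 and 10.99 CPM in siCtrl Srf and 25.9 and 26.3 CPM in siATF4 Srf cells (a log2 fold change of 1.14 ± 0.08 SE, adjusted p = 2.3e-08). In DMSO it was at 17.98 and 17.6 and 30.9 and 30.9 CPM (0.78 ± 0.08). NDUFAF6, also an early factor, rose from 7.84 and 8.65 to 14.9 and 14.4 CPM in Srf (0.79 ± 0.08) and by 0.46 ± 0.08 in DMSO. NDUFAF7, a methyltransferase needed for complex I assembly (GRCh37 chr2:37458774-37480546 on the plus strand), went the other way, from 18.2 and 18.99 to 13.5 and 11.4 CPM in Srf (-0.56 ± 0.08) and from 15.8 and 16.7 to 10.7 and 9.90 CPM in DMSO (-0.63 ± 0.08). Its 4 siATF4 libraries were the lowest of the 12. NDUFAF5 rose in Srf by 0.44 ± 0.07 and NDUFAF3, a partner of NDUFAF4, fell by 0.35 on the log2 scale ± 0.07 (SE), and in DMSO neither was called (0.10 ± 0.07 and -0.03 ± 0.07). In all, 5 of 8 complex I assembly factors were raised and 2 lowered in Srf, and 2 were raised and 1 lowered in DMSO. The shares over all genes were 35.8% raised and 37.4% lowered in Srf, and 33.4% and 34.4% in DMSO.

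Complex II, succinate dehydrogenase, has 4 subunits, all encoded in the nucleus. SDHB, the iron-sulfur subunit (GRCh37 chr1:17345159-17380527 on the minus strand), was at 116 and 121 CPM in siCtrl Srf and 171 and 182 CPM in siATF4 Srf cells (a log2 fold change of 0.57 ± 0.05 SE, adjusted p = 4.1e-07), and at 143 and 144 CPM (siCtrl) and 167 and 167 CPM (siATF4) in DMSO (0.22 ± 0.05). SDHD, a membrane anchor, rose from 47.9 and 48.7 to 71.7 and 66.1 CPM in Srf (0.51 ± 0.10) and by 0.32 ± 0.10 in DMSO, a call that was lost without siCtrl DMSO replicate 1 or siATF4 DMSO replicate 1. The subunits did not move together. SDHA, the flavoprotein, rose by only 0.14 ± 0.04 in Srf and was not called in DMSO (-0.02 ± 0.04), and SDHC, the other anchor, fell by 0.15 ± 0.06 in Srf, from 88.9 and 86.2 to 81.1 and 76.2 CPM. The call on SDHC in Srf was lost without siCtrl Srf replicate 1, siCtrl Srf replicate 2 or siATF4 Srf replicate 2, and that on SDHA without siCtrl Srf replicate 1 or siATF4 Srf replicate 2. Reads that match SDHA and a pseudogene of it equally would have been left out, since the study kept only unique hits to the genome. Of these pseudogenes SDHAP1 averaged 11.2 and SDHAP4 9.40 CPM.

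All 4 assembly factors of complex II were raised in siATF4 Srf cells and 3 of 4 in siATF4 DMSO cells, where 35.8% and 33.4% of all genes were raised. SDHAF3, which helps SDHB to obtain its iron-sulfur clusters, was at 5.52 and 5.52 CPM in siCtrl Srf and 9.69 and 9.61 CPM in siATF4 Srf cells (a log2 fold change of 0.75 ± 0.08 SE, adjusted p = 1.5e-06), and at 6.34 and 6.92 CPM (siCtrl) and 10.5 and 10.7 CPM (siATF4) in DMSO (0.64 ± 0.08). SDHAF1, which acts in the same step, rose by 0.46 ± 0.09 in DMSO and 0.27 ± 0.09 in Srf, where the call was lost without either siATF4 Srf library or siCtrl Srf replicate 1. SDHAF2, needed to attach the flavin to SDHA, rose by 0.39 ± 0.06 and 0.32 ± 0.06. SDHAF4, which helps SDHA to join SDHB, was low throughout, at 2.66 and 3.28 CPM in siCtrl Srf and 4.32 and 4.30 CPM in siATF4 Srf cells (0.48 ± 0.11), and did not pass the test in DMSO (0.05 ± 0.11).

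Of the 9 genes of complex III, the cytochrome bc1 complex, 7 rose in siATF4 Srf cells, 1 fell (UQCRC1) and 1 was not called (UQCRB). There, 35.8% of all genes were raised and 37.4% lowered. UQCRH, the hinge protein, was at 91.6 and 93.2 CPM in siCtrl Srf and 128 and 128 CPM in siATF4 Srf cells (a log2 fold change of 0.47 ± 0.06 SE, adjusted p = 4.5e-06), and rose by 0.48 ± 0.06 in DMSO. Its near-identical copy UQCRHL changed by 0.44 ± 0.07 in Srf and 0.36 ± 0.07 in DMSO. Reads that match UQCRH and UQCRHL equally would have been left out, since the study kept only unique hits to the genome. UQCR10 rose by 0.39 ± 0.06 and UQCR11 by 0.29 ± 0.06 in Srf, both small subunits. The core protein UQCRC2 rose from 154 and 151 to 183 and 182 CPM (0.26 ± 0.04), whereas UQCRC1, the other core protein, fell from 268 and 274 to 222 and 236 CPM (a log2 fold change of -0.25 ± 0.04). UQCRFS1, the Rieske iron-sulfur protein, rose by 0.25 ± 0.05 in Srf and stood at 0.02 ± 0.05 in DMSO, where it was not called. UQCRB, at 118 and 117 CPM in siCtrl Srf and 118 and 117 CPM in siATF4 Srf cells, was not called there or in DMSO, and its pseudogene UQCRBP1 averaged 27.6 CPM.

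Complex IV, cytochrome c oxidase, was split. COX19, which acts in copper delivery (GRCh37 chr7:938415-1015185 on the minus strand), had the largest rise of all 102 genes in DMSO, from 9.87 and 9.43 CPM in siCtrl to 19.3 and 19.9 CPM in siATF4 cells (a log2 fold change of 0.99 ± 0.07 SE, adjusted p = 6.3e-08). In Srf it was at 9.17 and 10.3 CPM (siCtrl) and 16.1 and 16.1 CPM (siATF4) (0.70 ± 0.07). COX8A, a small subunit, rose by 0.44 ± 0.06 and 0.42 ± 0.06, and COX18, an insertase, by 0.38 ± 0.07 and 0.34 ± 0.07 in DMSO and Srf. COX20, a chaperone of the mitochondrially encoded subunit 2, rose by 0.32 ± 0.06 and 0.30 ± 0.06. On the other side, COX7B2 fell by 0.46 ± 0.08 in DMSO and 0.46 ± 0.08 in Srf, from 11.8 and 12.1 to 8.74 and 8.41 CPM in the latter. COX6B1, a subunit on the side of cytochrome c, fell by 0.39 ± 0.05 in Srf, from 127 and 127 to 96.3 and 98.3 CPM. COX11, another copper factor, fell by 0.39 ± 0.06 and 0.37 ± 0.06, and COX15, which makes heme A, by 0.25 ± 0.05 and 0.27 ± 0.05. COX11 shares exon bases with TOM1L1 and COX15 with ENTPD7 on the opposite strand, so their counts depend on the strand setting, which is not given in the sources used here. COX4I1, a subunit with a second isoform, was not called in siATF4 cells in either medium, with 164 and 165 CPM in siCtrl DMSO, 167 and 156 CPM in siATF4 DMSO, 182 and 184 CPM in siCtrl Srf and 167 and 177 CPM in siATF4 Srf cells. COX5A rose in Srf (0.30 ± 0.06) and COX5B in DMSO (0.31 ± 0.06).

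Complex V, the ATP synthase, consists of the catalytic F1 part, a peripheral stalk and a membrane part with a ring of c subunits. ATP5F1B, the catalytic β subunit and the most abundant of the set (GRCh37 chr12:57031959-57039768 on the minus strand), was at 1193 and 1199 CPM in siCtrl Srf and 1478 and 1515 CPM in siATF4 Srf cells (a log2 fold change of 0.32 ± 0.04 SE, adjusted p = 1.9e-05), and at 1213 and 1227 CPM (siCtrl) and 1418 and 1410.5 CPM (siATF4) in DMSO (0.21 ± 0.04). ATP5F1A, the α subunit, fell in DMSO from 559 and 573 to 494 and 481 CPM (a log2 fold change of -0.22 ± 0.05), and in Srf its 572 and 561 CPM in siCtrl and 605 and 603 CPM in siATF4 cells were not called different. ATP5PB, the b subunit of the stalk, rose by 0.26 ± 0.04, ATP5PF by 0.31 ± 0.06 and ATP5PO by 0.27 ± 0.05 in Srf. Thus 3 of the 4 stalk genes were raised in Srf and 1 of 4 in DMSO, where 35.8% and 33.4% of all genes were raised. Of the 4, only ATP5PB passed the direct test of a difference between media. The 3 genes of the c subunit code for the same mature protein and did not share a direction. ATP5MC3 rose by 0.14 ± 0.06 in Srf, a call that 8 of the 12 fits lost, those without a library of siCtrl DMSO, siCtrl Srf, siY/T Srf or siATF4 Srf. ATP5MC2 fell by 0.15 ± 0.05 in DMSO, which was lost without siCtrl DMSO replicate 2 or siATF4 DMSO replicate 2, and ATP5MC1 was called in neither (0.00 ± 0.06 in DMSO and 0.06 ± 0.06 in Srf). ATP5IF1, which binds F1 and stops it from hydrolysing ATP, was not called in siATF4 cells (0.08 ± 0.06 in DMSO and -0.11 ± 0.06 in Srf).

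Promoter sequences are shown for 5 of the genes named in the comparisons, picked by hand from those that changed. NDUFAF4, SDHB, SDHD and SDHAF3 were among the many genes raised in siATF4 cells, and ATP5IF1 had the largest rise in siY/T DMSO cells. Each is the 250 bases before the gene's start, read 5′ to 3′ on the gene's own strand and taken from RefSeq on GRCh38.p14, with matches to the searched motifs in capitals. The positions are chr6:96897892-96898141, minus strand for NDUFAF4, chr1:17054033-17054282, minus strand for SDHB, chr11:112086623-112086872, plus strand for SDHD, chr7:97117448-97117697, plus strand for SDHAF3 and chr1:28235874-28236123, plus strand for ATP5IF1.
NDUFAF4: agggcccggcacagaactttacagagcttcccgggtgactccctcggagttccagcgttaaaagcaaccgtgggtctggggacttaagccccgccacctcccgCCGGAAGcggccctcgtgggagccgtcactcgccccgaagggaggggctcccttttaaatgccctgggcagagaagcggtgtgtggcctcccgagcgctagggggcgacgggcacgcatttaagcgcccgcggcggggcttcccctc
SDHB: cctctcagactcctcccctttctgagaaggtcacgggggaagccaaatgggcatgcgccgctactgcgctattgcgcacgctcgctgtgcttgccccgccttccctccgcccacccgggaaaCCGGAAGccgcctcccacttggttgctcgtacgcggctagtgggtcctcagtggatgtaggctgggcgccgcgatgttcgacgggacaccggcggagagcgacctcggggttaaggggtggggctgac
SDHD: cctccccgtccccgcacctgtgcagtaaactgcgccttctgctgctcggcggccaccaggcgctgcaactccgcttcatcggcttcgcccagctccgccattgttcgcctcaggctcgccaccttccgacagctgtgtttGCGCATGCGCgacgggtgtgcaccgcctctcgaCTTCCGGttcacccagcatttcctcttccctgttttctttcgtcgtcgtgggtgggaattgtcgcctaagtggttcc
SDHAF3: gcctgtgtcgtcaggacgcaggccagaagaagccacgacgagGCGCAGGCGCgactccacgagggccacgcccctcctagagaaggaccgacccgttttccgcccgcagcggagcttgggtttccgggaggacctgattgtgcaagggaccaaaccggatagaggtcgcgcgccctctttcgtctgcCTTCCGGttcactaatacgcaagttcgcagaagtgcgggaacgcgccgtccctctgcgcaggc
ATP5IF1: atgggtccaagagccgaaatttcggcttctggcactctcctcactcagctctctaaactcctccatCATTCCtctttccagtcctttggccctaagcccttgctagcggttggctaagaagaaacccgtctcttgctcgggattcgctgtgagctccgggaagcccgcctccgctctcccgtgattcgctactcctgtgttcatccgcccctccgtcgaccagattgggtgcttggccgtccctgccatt
The motifs were searched on both strands and overlaps between motifs were not removed. They were the core motif of NRF1, a factor known for mitochondrial genes, CCGGAAG, known for ETS factors such as GABP, AANATGGCG, known for YY1, TGATGNAA, known for dimers of C/EBP and ATF factors, and GGAATG, known for TEAD, the DNA-binding partners of YAP/TAZ. A window was matched for 86 of the 102 genes. The 27305 promoters used for comparison include genes that were not tested, and shares over the tested genes alone were not counted. The NRF1 motif was in 20.9% of the members' windows and in 5.53% of all 27305 promoters of the same length, and those of ETS factors in 25.6% and 8.82%. YY1's letters were in 3.49% against 1.40%, those of C/EBP and ATF in 1.16% against 3.19% (1 gene, NDUFS6), and those of TEAD in 8.14% against 11.9%. In complex II, 4 of 7 windows held the NRF1 motif and 4 of 7 the ETS letters, beside 5 and 6 of 39 in complex I. These numbers were 3 and 3 of 7 in complex III, 2 and 6 of 19 in complex IV and 4 and 3 of 14 in complex V. The ETS letters lay 147 bases before the start in NDUFAF4 and 128 bases before it in SDHB, the NRF1 motif and the ETS letters 110 and 77 bases before it in SDHD and 208 and 63 bases before it in SDHAF3, and the TEAD letters 184 bases before the start of ATP5IF1. COX19 and NDUFAB1, which also rose in siATF4 cells and are not shown, held 0 matches to any of these motifs. Whether the motifs go with the rises was not tested. A match is a description of letters and not of a bound site.

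**Figure D4:**
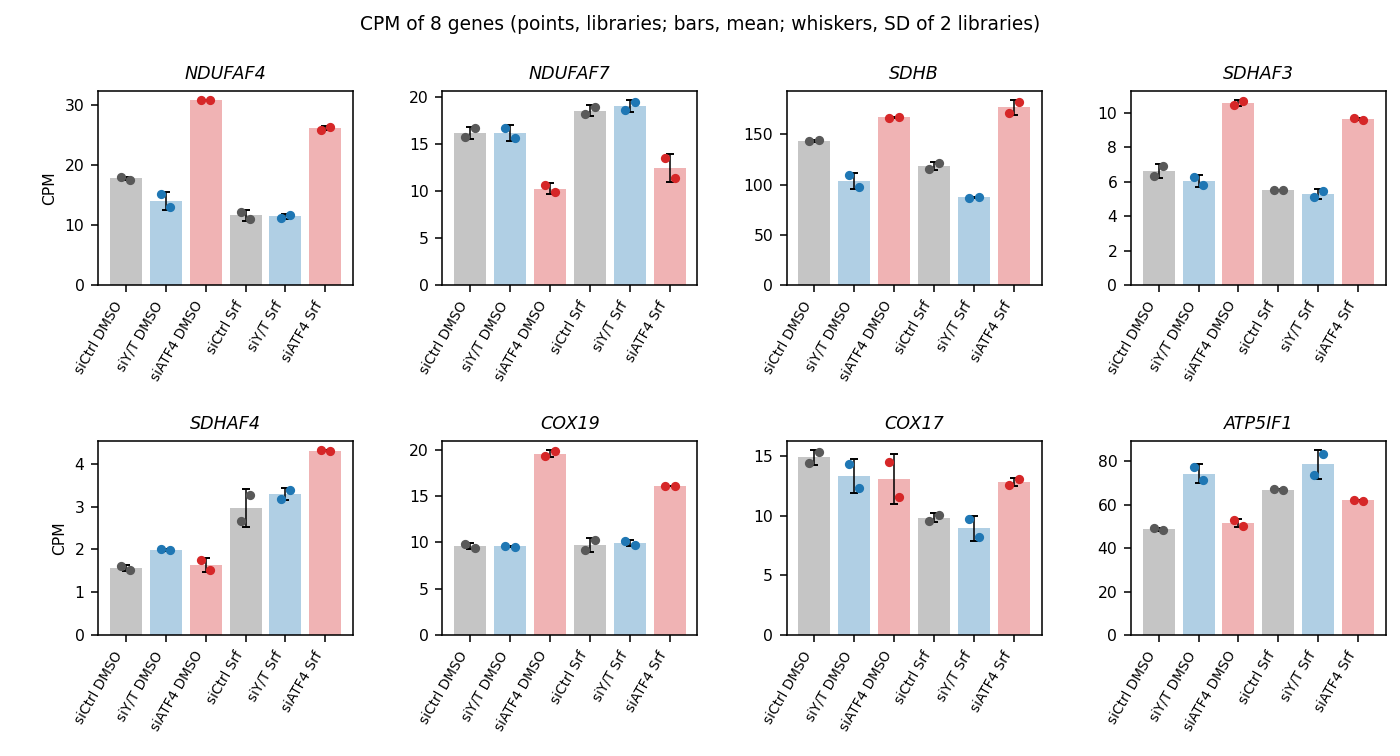
CPM of 8 genes in the 6 groups, with a point for each library, a bar at the mean of the 2 libraries and a whisker for their SD. NDUFAF4, SDHAF3 and COX19 are higher in the 4 siATF4 libraries than in the other 8, NDUFAF7 is lower there, SDHB is lowest in the 4 siY/T libraries, and ATP5IF1 is higher in siY/T than in siCtrl cells in both media.

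With YAP and TAZ knocked down, the set as a whole stayed close to its control level, and single genes changed. In siY/T DMSO against siCtrl DMSO cells 26 genes were raised and 7 lowered, where 37.3% of all genes were raised and 22.8% lowered. In siY/T Srf against siCtrl Srf cells 16 were raised and 10 lowered, against 30.2% and 18.8%. The members' shares of 25.5% raised and 6.86% lowered in DMSO, and 15.7% and 9.80% in Srf, were all below those of all genes. The medians were 0.03 and 0.01 beside 0.07 and 0.05 for all genes. Only ATP5IF1 in DMSO passed an unadjusted P under 0.05 with a log2 change of at least 0.58, where 14.6% of all genes did, and 0 did in Srf, where 9.95% did. In limma at an adjusted p under 0.05 the Srf comparison still held the 26 genes above, so the 0 concerns the size of the change.

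The direction of the siY/T result as a whole depended on the scaling and on 1 library. With TMM scaling 16 genes were raised and 18 lowered in DMSO, and 10 raised and 18 lowered in Srf, with medians of -0.03 and -0.05. By quantile normalization the counts were 19 and 15 in DMSO, and 8 and 18 in Srf. Between the 2 siY/T DMSO libraries, the second lay below the first for 99 of the 102 genes, by a median of 0.14 on the log2 scale, where the median over all genes was -0.01. Without replicate 1 of this group 16 genes were raised and 23 lowered, and without replicate 2 the numbers were 43 and 6. The difference between these libraries ran with transcript length, from -0.09 in the shortest of the 5 bins to 0.12 in the longest. In Srf the number raised fell from 16 to 8 without siY/T Srf replicate 2, to 12 without siCtrl Srf replicate 1 and to 11 without siCtrl Srf replicate 2. The part of length in the siY/T result was not tested beyond the setting that removes it, which gave 16 raised and 27 lowered in DMSO.

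SDHB was the clearest fall in siY/T cells. It was at 143 and 144 CPM with siCtrl and only 109 and 97.8 CPM with siY/T in DMSO (a log2 fold change of -0.47 ± 0.05 SE, adjusted p = 5.8e-06), and in Srf at 116 and 121 CPM beside 87.03 and 87.2 CPM (-0.44 ± 0.05, adjusted p = 1.8e-05), with no overlap between the groups in either medium. SDHA in turn stood at 0.19 ± 0.04 in Srf, where it was called higher, and the other subunits of complex II were not called there. The complex I assembly factors NDUFAF2 and NDUFAF8 fell in both media. NDUFAF2, a late factor, went from 36.9 and 35.6 to 30.3 and 26.3 CPM in DMSO (-0.35 ± 0.07) and changed by -0.30 ± 0.07 in Srf. NDUFAF8, a partner of NDUFAF5, went from 49.6 and 49.9 to 42.2 and 36.4 CPM in DMSO (-0.34 ± 0.06) and changed by -0.36 ± 0.06 in Srf. NDUFAF4 was lower in DMSO (-0.33 ± 0.08) and stood at -0.02 ± 0.08 in Srf, and this difference between media did not pass its own test (adjusted p = 0.055, limma). ATP5F1B fell by 0.20 ± 0.04 in DMSO and 0.17 ± 0.04 in Srf, and the stalk gene ATP5PB by 0.21 ± 0.04 and 0.14 ± 0.04, the latter lost without siCtrl Srf replicate 1 or siY/T Srf replicate 2.

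ATP5IF1, the inhibitor of ATP synthase (GRCh37 chr1:28562620-28573417 on the plus strand), showed the largest rise in siY/T DMSO cells. In DMSO it was at 77.4 and 71.2 CPM with siY/T beside 49.2 and 48.2 CPM with siCtrl (a log2 fold change of 0.60 ± 0.06 SE, adjusted p = 2.3e-06), and in Srf at 73.8 and 83.3 CPM beside 67.2 and 66.7 CPM (0.23 ± 0.06). The call in Srf was lost without siY/T Srf replicate 2. NDUFAF3 rose in DMSO from 75.9 and 78.4 to 109 and 96.02 CPM (0.40 ± 0.07) and NDUFB1 from 20.2 and 21.4 to 27.9 and 25.5 CPM (0.35 ± 0.09). NDUFS3 rose in both media, by 0.30 ± 0.06 and 0.30 ± 0.06. NDUFB4, a membrane-arm subunit, had the largest rise in Srf, from 53.1 and 51.4 to 64.2 and 66.3 CPM (0.32 ± 0.06). SDHAF2 rose by 0.26 ± 0.06 and 0.27 ± 0.06, and COX15 by 0.18 ± 0.05 and 0.24 ± 0.05, the latter with the limit on strand given above. COX10, which makes the heme O that COX15 converts, rose in Srf by 0.26 ± 0.06. Of the 37 complex I subunits 15 were raised in DMSO and 0 lowered in limma, where 37.3% and 22.8% of all genes were. At an unadjusted p under 0.05 limma gave 15 and 1, and edgeR and DESeq2 gave 10 and 3 each at an adjusted p under 0.05. Without siY/T DMSO replicate 1 limma gave 10 raised and 5 lowered, without replicate 2 it gave 22 and 0, and without either siCtrl DMSO library 10 and 0.

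Sorafenib in siCtrl cells moved single genes of the set in both directions. Of the 102, 19 were raised and 27 lowered in siCtrl Srf against siCtrl DMSO cells, where 36.3% of all genes were raised and 26.9% lowered. The members' share lowered, 26.5%, was close to that of all genes and the share raised, 18.6%, below it, and the median log2 fold change was -0.00 beside 0.05. SDHAF4 was higher and NDUFAF4 lower at an unadjusted P under 0.05 and a log2 change of at least 0.58, limits that 17.5% of all genes passed. NDUFAF4 went from 17.98 and 17.6 to 12.3 and 10.99 CPM (a log2 fold change of -0.59 ± 0.08 SE, adjusted p = 1.9e-05). COX17, the copper chaperone of complex IV, fell from 14.4 and 15.3 to 9.58 and 10.1 CPM (-0.57 ± 0.11), COX16 by 0.51 ± 0.07, NDUFAB1 by 0.49 ± 0.08 and COX20 by 0.41 ± 0.06. Counts of COX16 may include those of the read-through gene SYNJ2BP-COX16, with which it shares exons. In complex II, SDHA fell by 0.29 ± 0.04 and SDHB by 0.28 ± 0.05, and in complex III UQCRFS1 by 0.34 ± 0.05, from 115 and 116 to 91.3 and 89.8 CPM. Of 8 complex I assembly factors 5 were lowered and 1, NDUFAF3, was raised.

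The genes raised by Sorafenib in siCtrl cells were led by SDHAF4, at 1.62 and 1.51 CPM in siCtrl DMSO beside 2.66 and 3.28 CPM in siCtrl Srf cells (a log2 fold change of 0.74 ± 0.11 SE, adjusted p = 6.0e-05). ATP5IF1 followed, from 49.2 and 48.2 to 67.2 and 66.7 CPM (0.45 ± 0.06), then NDUFA7 from 9.16 and 8.94 to 11.98 and 12.8 CPM (0.43 ± 0.08) and NDUFA3 (0.29 ± 0.08). The call on NDUFA3 was lost without siCtrl DMSO replicate 1 or siCtrl Srf replicate 2, and its exons overlap TFPT on the other strand. UQCRC1 rose from 224 and 222 to 268 and 274 CPM (0.28 ± 0.04) and NDUFV1 from 184 and 179 to 211 and 217 CPM (0.24 ± 0.04). With TMM scaling 14 genes were raised and 30 lowered, and with the length trend removed 13 and 37.

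The same drug comparison was made within each knockdown. In siY/T cells 12 genes were raised and 26 lowered by Sorafenib, where 29.5% and 23.5% of all genes were, and SDHAF4 alone passed an unadjusted P under 0.05 with a log2 change of at least 0.58, as 9.97% of all genes did. The split rested on the siY/T libraries, with 20 raised and 12 lowered without siY/T DMSO replicate 1, 10 and 46 without siY/T DMSO replicate 2, and 13 and 13 without siY/T Srf replicate 1. COX17 fell there too (-0.55 ± 0.11), as did COX20 (-0.46 ± 0.06) and NDUFA12 (-0.37 ± 0.05), the subunit that takes the place of NDUFAF2 late in assembly, and NDUFA7 (0.36 ± 0.08) and UQCRB (0.33 ± 0.06) rose, the latter together with its pseudogene UQCRBP1 (0.48 ± 0.06). The complex I subunits NDUFB5 (0.27 ± 0.06) and NDUFS4 (0.25 ± 0.06) rose as well. In siATF4 cells 20 genes were raised and 10 lowered, where 27.9% and 22.4% of all genes were. With TMM scaling the numbers were 13 and 13. The only gene past P under 0.05 with a log2 change of at least 0.58 was SDHAF4, limits that 8.63% of all genes passed, and it went from 1.76 and 1.52 to 4.32 and 4.30 CPM (a log2 fold change of 1.17 ± 0.11 SE, adjusted p = 2.7e-06). ATP5F1A rose from 494 and 481 to 605 and 603 CPM (0.31 ± 0.05), and NDUFA7 (0.31 ± 0.08), COX7B (0.30 ± 0.07) and ATP5MC2 (0.29 ± 0.05) rose as well, while COX20 (-0.44 ± 0.06), NDUFAB1 (-0.33 ± 0.08) and COX7B2 (-0.32 ± 0.08) fell. Without siATF4 DMSO replicate 1 the counts in siATF4 cells were 14 raised and 6 lowered, without siATF4 DMSO replicate 2 they were 9 and 7, without siATF4 Srf replicate 1 they were 13 and 6, and without siATF4 Srf replicate 2 they were 12 and 10. SDHAF4 was raised by Sorafenib in each of the 3 siRNA backgrounds, at 1.51 to 4.32 CPM over the 12 libraries. These comparisons share libraries with those of the siRNAs above.

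The difference between the effect of an siRNA with Sorafenib and its effect without it was tested directly. For siY/T, 0 genes had a higher and 3 a lower log2 effect in Srf than in DMSO at an adjusted p under 0.05 in limma, where 7.81% and 14.2% of all genes did. At an unadjusted p under 0.05 limma gave 4 and 9, and at an adjusted p under 0.05 edgeR and DESeq2 gave 0 and 2 each. The 3 were ATP5IF1, UQCRC1 and NDUFV1, and the call on NDUFV1 was lost in 9 of the 12 fits without 1 library, all but those without siY/T DMSO replicate 2 or a siATF4 Srf library. UQCRC1 was at 282 and 264 CPM in siY/T DMSO beside 224 and 222 CPM in siCtrl DMSO cells, and at 263 and 259.8 beside 268 and 274 CPM in Srf, with a rise of 0.29 ± 0.04 in DMSO and a value of -0.05 ± 0.04 in Srf that was not called. Without siY/T DMSO replicate 1 the counts were 6 and 2, and without replicate 2 they were 0 and 23. For siATF4, 18 genes had a higher and 3 a lower effect in Srf, where 19.3% and 21.8% of all genes did. The share that was higher, 17.6%, was near that of all genes, and the share that was lower, 2.94%, below it.

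COX17 had the largest such difference for siATF4. It was at 14.4 and 15.3 CPM in siCtrl DMSO beside 14.5 and 11.6 CPM in siATF4 DMSO cells, and at 9.58 and 10.1 CPM in siCtrl Srf and 12.6 and 13.03 CPM in siATF4 Srf cells, so that both Srf libraries of siATF4 lay above those of siCtrl while the DMSO groups overlapped (difference 0.56 ± 0.15 SE, adjusted p = 0.012). SDHAF4 (0.43 ± 0.15), COX16 (0.39 ± 0.10), NDUFAF4 (0.36 ± 0.11), SDHB (0.36 ± 0.07) and NDUFA5 (0.35 ± 0.11) followed. ATP5F1A and ATP5F1C, the α and γ subunits of F1, were both lowered by siATF4 in DMSO, and in Srf the first was not called and the second was raised, with differences of 0.31 ± 0.07 and 0.32 ± 0.06. COX19 (-0.29 ± 0.10), NDUFAF3 (-0.32 ± 0.10) and NDUFB11 (-0.22 ± 0.08) had lower effects in Srf. Of these 21 calls, 9 held in all 12 fits without 1 library (COX16, SDHB, NDUFA9, NDUFAF5, NDUFS1, NDUFV2, ATP5F1A, ATP5F1C and ATP5PB). That on COX17 was lost without siATF4 DMSO replicate 2, that on NDUFAF4 in 5 of the fits, on SDHAF4 in 6, on NDUFA5 and NDUFAF3 in 4 each, and on COX19 and NDUFB11 in 7 each, in every case by leaving out a siCtrl or siATF4 library. The counts moved with the libraries used, from 11 higher and 0 lower without siCtrl DMSO replicate 1, 12 and 1 without siCtrl DMSO replicate 2, and 10 and 1 without siATF4 DMSO replicate 2, to 27 and 7 without either siY/T DMSO library. They were 14 and 0 without siATF4 DMSO replicate 1, 13 and 0 without siCtrl Srf replicate 2, 13 and 0 without siATF4 Srf replicate 1, 12 and 3 without siCtrl Srf replicate 1, and 13 and 6 without siATF4 Srf replicate 2. With the length trend removed they were 36 and 2.

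**Figure D5:**
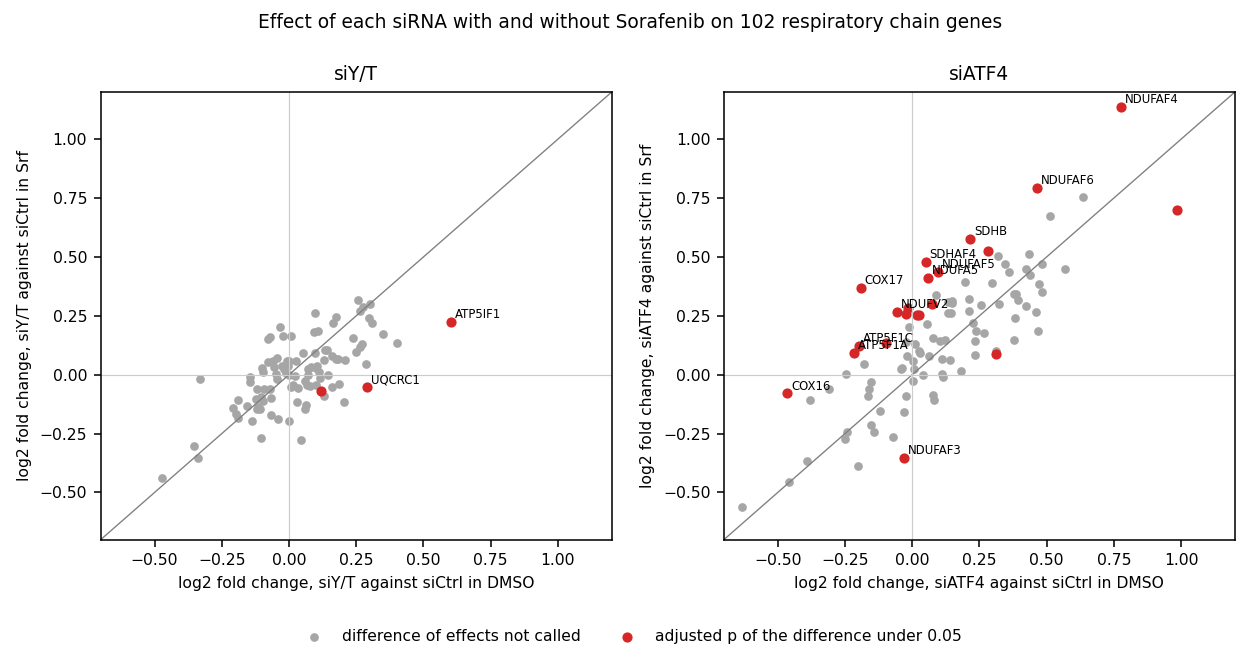
Each point is 1 of the 102 genes, at its log2 fold change of the siRNA against siCtrl in DMSO (horizontal) and in Srf (vertical), with the diagonal where both are equal, red where the difference passed an adjusted p of 0.05, and names where it was at least 0.3. On the left, for siY/T, ATP5IF1 lies below the diagonal at 0.60 in DMSO and 0.23 in Srf, and on the right, for siATF4, COX17 and NDUFAF4 lie above it and COX19 below it.

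Several subunits of complex IV have tissue isoforms. COX4I2, COX6A2 and COX7A1 were at 0 reads in all 12 libraries, which allows up to 3 reads in each, while COX4I1, COX6A1 and COX7A2 were in siCtrl DMSO cells at 164 and 165 CPM, 85.8 and 86.6 CPM, and 99.1 and 100.1 CPM in that order. Per length, COX6B2 averaged 0.115 CPM per kilobase over the 12 libraries beside 235 CPM per kilobase of COX6B1, and COX8C 0.0454 beside 508 CPM per kilobase of COX8A. COX7B2, a form of COX7B that is mainly known from testis, was in contrast present at 22.01 CPM per kilobase beside 40.6 of COX7B. COXFA4, formerly NDUFA4, was at 119.9 and 119 CPM in siCtrl DMSO beside 129 and 130.1 CPM in siATF4 Srf cells. These groups differ in both siRNA and medium. The isoform COXFA4L2, known to rise in hypoxia, was at most 0.193 CPM, and no transcript length was matched for COXFA4 and COXFA4L2.

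Genes of the same pathway outside the name rule were taken from 6 lists, described by their counts in limma as above. These lists too were chosen with earlier results of these data known. Of all genes tested, 35.8% were raised and 37.4% lowered in siATF4 Srf, 33.4% and 34.4% in siATF4 DMSO, 37.3% and 22.8% in siY/T DMSO and 30.2% and 18.8% in siY/T Srf cells, and 36.3% and 26.9% by Sorafenib in siCtrl cells. Among 5 further subunits tested, 3 rose in siATF4 cells in both media, CYC1, the cytochrome c1 of complex III, CYCS, cytochrome c itself, and COXFA4L3, a paralog of COXFA4. CYC1 went from 128 and 138 to 192 and 210.0 CPM in Srf (0.59 ± 0.06) and CYCS from 93.4 and 88.5 to 149 and 148 CPM (0.70 ± 0.06). COXFA4L3 had the largest rise of the 5 in DMSO, from 21.4 and 18.02 to 66.6 and 58.8 CPM (1.65 ± 0.15), and a smaller one in Srf, from 20.2 and 19.7 to 28.6 and 27.8 CPM (0.49 ± 0.15), with a difference between media of -1.15 ± 0.22 (limma, adjusted p = 0.001). Its call in Srf was lost without siATF4 Srf replicate 1 or siCtrl Srf replicate 2. In siY/T DMSO cells COXFA4L3 (-1.08 ± 0.15) and CYCS (-0.64 ± 0.06) fell, CYCS from 140.4 and 145 to 92.6 and 90.3 CPM, and CYCS fell with Sorafenib in siCtrl cells too (-0.65 ± 0.06), as did CYC1 (-0.17 ± 0.06), while DMAC2L rose (0.38 ± 0.08). The call on CYC1 was lost without either siCtrl DMSO library or siCtrl Srf replicate 1.

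Of 39 assembly factors outside the prefixes 25 were raised and 4 lowered in siATF4 Srf cells (64.1% and 10.3%), and 20 and 5 in siATF4 DMSO cells (51.3% and 12.8%). SCO1, a copper chaperone of complex IV, rose by 0.69 ± 0.08 and CMC2 by 0.84 ± 0.06 in Srf, whereas DMAC2 changed by -1.10 ± 0.05. In DMSO, FMC1, a factor for ATP synthase, rose by 0.81 ± 0.09 and TMEM186, a complex I factor, by 0.71 ± 0.08, and DMAC2 changed by -0.74 ± 0.05.

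The regulators of mitochondrial biogenesis and mitochondrial DNA expression were raised in 23 of 27 cases and lowered in 1 in siATF4 Srf cells (85.2% and 3.70%), with a median of 0.41, and in 19 and 3 in siATF4 DMSO cells (70.4% and 11.1%) with a median of 0.30, where the number lowered was 1 without siCtrl DMSO replicate 2 or either siATF4 DMSO library. PPARGC1B, a coactivator of mitochondrial genes, went from 10.2 and 10.9 to 24.5 and 21.8 CPM in Srf (1.10 ± 0.08) and from 7.48 and 8.03 to 15.1 and 16.1 CPM in DMSO (0.97 ± 0.08). ESRRA, the nuclear receptor it acts with, rose in DMSO from 23.1 and 21.2 to 42.6 and 45.9 CPM (0.98 ± 0.08), as did TWNK, the helicase of mitochondrial DNA (0.84 ± 0.06). PNPT1, which processes mitochondrial RNA, rose in Srf by 0.95 ± 0.06 and MTERF3 by 0.86 ± 0.06. In siY/T DMSO cells 1 gene of this list was called higher and 16 lowered, among the latter PPARGC1B (-0.88 ± 0.08) and PNPT1 (-0.63 ± 0.06), with a median of -0.24. The 1 higher gene, PPARGC1A, was near the limit on CPM, as given below. Without siY/T DMSO replicate 1 these counts were 1 and 15, and without replicate 2 they were 2 and 14. In siY/T Srf cells 4 were raised, MTIF3 (0.22 ± 0.08) among them, and 7 lowered, PPARGC1B (-0.60 ± 0.08) among them, with a median of 0.02. The Srf counts fell to 2 and 4 without siCtrl Srf replicate 1, and to 2 and 3 without siCtrl Srf replicate 2 or siY/T Srf replicate 2, each of which also ended the call on MTIF3. Sorafenib in siCtrl cells raised 5 and lowered 17, the latter including TFAM, the packaging factor of mitochondrial DNA, which went from 72.9 and 73.1 to 43.5 and 43.7 CPM (-0.74 ± 0.06), and PNPT1 (-0.59 ± 0.06). The number raised was 3 without siCtrl DMSO replicate 1 or either siCtrl Srf library. PPARGC1A, a related coactivator, was at 0.0932 and 0.0222 CPM in siCtrl DMSO and reached 1.58 and 1.47 CPM in siY/T Srf cells, its highest. NRF1, whose motif is counted above, was at 21.3 and 21.8 CPM in siCtrl DMSO beside 20.5 and 22.1 CPM in siATF4 Srf cells. For PPARGC1A and NRF1 alike, the groups set side by side differ in both siRNA and medium.

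Genes of mitochondrial import and content, 36 in number, had 27 raised and 2 lowered in siATF4 Srf (75.0% and 5.56%) and 19 and 3 in siATF4 DMSO cells (52.8% and 8.33%). CHCHD4, the import receptor for small cysteine-rich proteins, rose by 1.22 ± 0.06 in siATF4 Srf cells, TIMM21, of the inner membrane translocase, by 1.13 ± 0.06, and CHCHD3, a cristae protein, by 1.10 ± 0.05. The same 3 led the list in siATF4 DMSO cells, at 1.07 ± 0.06, 0.73 ± 0.06 and 0.66 ± 0.05. In siY/T DMSO cells 2 were raised and 27 lowered (5.56% and 75.0%), led by TIMM8A (-0.46 ± 0.07), CHCHD4 (-0.44 ± 0.06) and TIMM17A (-0.42 ± 0.07). The numbers were 1 and 28 without siY/T DMSO replicate 1, 4 and 22 without replicate 2, and 1 and 21 or 1 and 24 without the first or second siCtrl DMSO library. In siY/T Srf cells 4 were raised and 16 lowered (11.1% and 44.4%), led by CHCHD10 (-0.41 ± 0.09), SLC25A5 (-0.39 ± 0.04) and TIMM44 (-0.36 ± 0.06), and the numbers were 2 and 10 without siCtrl Srf replicate 2, 0 and 12 without siCtrl Srf replicate 1 and 0 and 11 without siY/T Srf replicate 2. Sorafenib in siCtrl cells raised 6 and lowered 24 (16.7% and 66.7%), among the latter TOMM40, the import pore of the outer membrane, by 0.89 ± 0.05, TIMM21 (-0.74 ± 0.06) and TOMM5 (-0.68 ± 0.06).

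The citric acid cycle and pyruvate dehydrogenase list, 27 genes, had 13 raised and 8 lowered in siATF4 Srf cells (48.1% and 29.6%), among the latter PDK4 (-1.67 ± 0.15) and PDK2 (-1.02 ± 0.05), kinases that switch off pyruvate dehydrogenase, and IDH2 (-1.37 ± 0.05). Without siCtrl Srf replicate 1 the numbers were 12 and 5. Among 25 mitochondrial stress and one-carbon genes, which include many known ATF4 targets, 10 were raised and 11 lowered in siATF4 Srf cells, shares of 40.0% and 44% that lie near those of all genes. CHAC1 changed by -2.76 ± 0.14, PCK2 by -2.49 ± 0.07 and PHGDH, the first enzyme of serine synthesis, by -2.17 ± 0.06. In siATF4 DMSO cells 13 were raised and 7 lowered (52.0% and 28.0%), PHGDH (-2.12 ± 0.06) and ASNS, asparagine synthetase (-1.42 ± 0.12), being lowered and DDIT3, the stress factor CHOP (2.04 ± 0.05), raised. In siY/T DMSO cells 4 were raised and 18 lowered (16% and 72%), ASNS changing by -1.53 ± 0.12, PSAT1, of serine synthesis, by -1.15 ± 0.09 and GDF15, a secreted stress marker, by 0.80 ± 0.09, and the counts were 3 and 19 without siY/T DMSO replicate 1 and 4 and 17 without replicate 2. No test compared any of these lists with the respiratory chain genes or with other genes.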

How the data were processed

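HLE cells were profiled by stranded poly(A) RNA sequencing in 12 libraries, 2 for each of 6 groups taken from the sample titles. The authors deposited 1 table of CPM (counts per 1000000 reads on genes) per Entrez gene, made by aligning reads to hg19 with STAR and counting reads on RefSeq mRNAs, and the strand setting of the counting is not given in the sources used here. Only reads with a unique hit to the genome were kept in the alignment. The deposited CPM held whole reads (all values within 0.001 of a whole number of reads), and each library's total ranged from 41408348 to 53619732, with no column left unmapped (0 of 12). An identifier had a current symbol in 26111 of 26258 cases.

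The 13515 genes that reached 1 CPM in 2 or more libraries were tested with limma 3.58.1 in R 4.3.3, with a mean-variance trend, on log2(CPM + 0.5) over all 6 groups, and p-values were adjusted by Benjamini-Hochberg over all genes. Fold changes are on that scale and understate those of low genes. A call is an adjusted p under 0.05, and the limits of P under 0.05 and a log2 change of at least 0.58 follow the study's methods. Alternatives were pseudocounts of 0.1 and 1, no filter and a filter of 5 CPM, TMM scaling, quantile normalization, a replicate block, only the compared groups, edgeR 4.0.16 and DESeq2 1.42.0 on the recovered reads, each library left out, and a removed length trend, which was added after the data were seen. The fit was tested on simulated data.

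The members and lists were chosen with earlier results of these data known. The genes named were the siRNA targets, the 5 largest called rises and falls per comparison among members with a mean of at least 5 CPM, members past the study's limits, central subunits of each complex, isoform pairs, the 5 clearest differences between media and up to 3 of the largest called changes of each list in a comparison described. Further members were named for their role after their values were seen. Lengths are those of canonical transcripts, positions are GRCh37, and promoters are GRCh38.p14, each from its own annotation. Subunits encoded in mitochondrial DNA were not analysed here. One gene that this rule named is not reported here, and it stays in all counts and medians.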

Additional observations from a re-analysis of the deposited data

Results flagged for a closer look

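Effects of an siRNA differed between Sorafenib and DMSO for 24 changes in these genes, by the direct test of the difference (limma, Benjamini-Hochberg adjusted p under 0.05 over all genes tested). For siY/T, 0 of the 102 genes were higher and 3 lower, where 7.81% and 14.2% of all genes were. For siATF4, 18 were higher and 3 lower, where 19.3% and 21.8% of all genes were. Only 2 of the 3 siY/T calls and 9 of the 21 siATF4 calls held in all 12 fits without 1 library. Each value here is the log2 effect in Srf minus that in DMSO. For siY/T the differences were -0.38 for ATP5IF1, -0.34 for UQCRC1 and -0.19 for NDUFV1. For siATF4 they were 0.56 for COX17, 0.39 for COX16, 0.22 for COX5A and -0.29 for COX19 in complex IV. In complex II, SDHAF4 differed by 0.43 and SDHB by 0.36, and in complex III UQCRFS1 by 0.24. Among complex I assembly factors the differences were 0.36 for NDUFAF4, 0.34 for NDUFAF5, 0.33 for NDUFAF6 and -0.32 for NDUFAF3. Among complex I subunits they were 0.35 for NDUFA5, 0.32 for NDUFV2, 0.30 for NDUFA9, 0.24 for NDUFS3, 0.23 for NDUFS1 and -0.22 for NDUFB11. In complex V they were 0.32 for ATP5F1C, 0.31 for ATP5F1A, 0.28 for ATP5PB and 0.23 for ATP5MC3. Both siRNAs were compared with the same siCtrl libraries.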

How the results depend on the processing

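No called change of a single gene covered by the alternatives changed sign under any of them, while the medians given here that lie near 0 did. The number of respiratory chain genes changed moved by over 1.5 times under the study's limits of P under 0.05 and a log2 change of at least 0.58, where it was 1 (siY/T in DMSO), 4 (siATF4 in DMSO), 0 (siY/T in Srf), 5 (siATF4 in Srf), 2 (Srf in siCtrl), 1 (Srf in siY/T), 1 (Srf in siATF4) and 0 for each difference between media. With only the groups compared in the fit it was 21 for Srf in siY/T, 47 for Srf in siATF4 and 38 for the siATF4 difference between media. That difference also gave 38 with the length trend removed, and the siY/T difference gave 5 by quantile normalization and 8 with the length trend removed. With 1 library left out the number ranged from 17 to 33 for siY/T in Srf, from 16 to 43 for Srf in siATF4, from 2 to 23 for the siY/T difference and from 11 to 34 for the siATF4 difference. The median log2 change of the set moved by more than the spread between libraries to -0.0419 for siY/T in DMSO by DESeq2, 0.0156 for siATF4 in DMSO with the length trend removed, and 0.152 for siATF4 in Srf with a filter of 5 CPM. For siY/T in Srf it was -0.0467 with TMM, -0.0462 by quantile normalization, -0.0469 by edgeR, -0.0441 by DESeq2 and -0.0143 with the length trend removed. For Srf in siCtrl it was -0.0363 with TMM, -0.0365 by edgeR, -0.0469 by DESeq2 and -0.0766 with the length trend removed, and for Srf in siATF4 it was 0.00233 by DESeq2. Without 1 library the median ranged from -0.0331 to 0.100 for siY/T in DMSO, 0.0637 to 0.130 for siATF4 in DMSO, 0.156 to 0.195 for siATF4 in Srf, -0.144 to 0.0253 for Srf in siY/T and 0.0104 to 0.0763 for Srf in siATF4. Beyond the fewer genes or samples that some settings use, the cause was not tested. Of the changes of single named genes, 2792 values over all settings kept their side of the threshold and 103 lost it. Much of this agreement was fixed in advance, as most of these genes were picked for large called changes. Leaving out a library of a group outside a comparison also leaves its fold change as it was, so no sign could change there.

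The labels do not say whether replicate numbers pair the libraries. Deviations of same-numbered libraries from their group means correlated at -0.28 to 0.19 over 15 pairs of groups, with 4 above 0.1. Pairs within a medium were all positive, at 0.193, 0.036 and 0.098 in DMSO and 0.100, 0.164 and 0.118 in Srf. Pairs across media ran from -0.28 to 0.0054. Whether same-numbered libraries of a medium were handled together was not tested. With a replicate block the number of genes changed was 30, 58, 25 and 64 for siY/T in DMSO, siATF4 in DMSO, siY/T in Srf and siATF4 in Srf, 46, 37 and 28 for Srf in siCtrl, siY/T and siATF4, and 3 and 19 for the differences between media, within 1.5 times of the numbers without it. That block fits a single shift shared by both media, so it cannot show what a pairing within each medium would change.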
